A study of Homo sapiens with 9 samples.

Results

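The Notch genes described here are 10 of the 62709 genes counted in 9 RNA libraries, found by gene symbol in the deposited tables. They are 4 target genes (HEYL, HEY1, HEY2, HES1), 3 receptors (NOTCH1, NOTCH2, NOTCH3), the ligand JAG1 and 2 nuclear partners (RBPJ, MAML1). All 10 passed the filter on low counts and were among the 19426 genes tested. The set was chosen by measured values of these libraries in that HEYL was seen far lower in whole cells, so the values of HEYL against whole cells are given as a description, with no test.

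The cells were hTERT-MSC, a telomerase-immortalised line of human mesenchymal stem cells from fat, and all groups carry this line and the label PDGF-BB. Cells starved of serum overnight sat for 2 h on uncoated membranes with pores of 3 µm. For 1 h they then received PDGF-BB (a chemoattractant for mesenchymal cells) from below, at 50 ng/mL. The pseudopodia group is what was scraped from the lower face, the cell body group is what was scraped afterwards from the upper face, and each has 3 libraries. The 3 whole-cell libraries carry the same protocol, which does not say how whole cells were collected. In every comparison with whole cells, the handling of the cells and the fraction itself thus cannot be told apart. Whether replicates were separate cultures is not stated, so the spread behind each p-value may be technical.

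Notch receptors are cell-surface proteins that are cut when a ligand such as JAG1 on a neighbouring cell pulls on them. ADAM10 makes the first cut after binding, and γ-secretase, a membrane protease complex that includes NCSTN, then frees the intracellular domain. That domain enters the nucleus, binds RBPJ on DNA and recruits MAML1, which turns corepressed genes on. HES and HEY genes, which code for transcriptional repressors, are the best known targets, and in mesenchymal and mural cells NOTCH3, JAG1 and HEYL are widely studied.

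RBPJ recognises DNA that holds TGGGAA, so the stretches around this motif are shown for the members whose RefSeq start-site windows (GRCh38.p14, 250 bases before to 50 after each start) hold it. Windows were used for 9 of the 10 members, 13 windows in all, and HEY1 was not searched. Each line gives 30 bases on the gene's strand, 5′ to 3′, with TGGGAA or its reverse complement TTCCCA in capitals.
HEYL, chr1:39639804-39639833, minus strand: ccgcctagggccTTCCCAcggctcggcggc
HEYL, chr1:39639725-39639754, minus strand: aggaaagggcccTGGGAAagggcggtggcg
HEY2, chr6:125749407-125749436, plus strand: tccgcggccgcgTTCCCAcgcctcggctgg
HEY2, chr6:125749617-125749646, plus strand: agagttgcggcgTGGGAAagagccgctagg
HES1, chr3:194136052-194136081, plus strand: tgaaagttactgTGGGAAagaaagtttggg
HES1, chr3:194136066-194136095, plus strand: ggaaagaaagttTGGGAAgtttcacacgag
RBPJ, chr4:26319619-26319648, plus strand: ggtttaggaaatTTCCCAcggccgtgttgt
RBPJ, chr4:26319662-26319691, plus strand: agtggaaggcggTGGGAAggaggtgtagcg

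These 4 of the 9 members held the motif on either strand, each in 1 window with 2 matches. That is 4 of the members' 13 windows (30.8%), against 24.0% of 35116 windows of 300 bases over all genes. The longer form GTGGGAA, which contains the shorter one, was found in the same 4 windows and in 6.25% of all windows. HEYL and HES1, which differed in opposite directions between whole cells and the fractions, both held matches. Both HEYL matches and the second HEY2 and RBPJ matches lie within exons of GENCODE 29. The HES1 pair lies 84 and 70 bases before the RefSeq start, in the upstream stretch shown here for its closely spaced matches (capitals), which spans 247 bases.
HES1 upstream, chr3:194135898-194136144, plus strand: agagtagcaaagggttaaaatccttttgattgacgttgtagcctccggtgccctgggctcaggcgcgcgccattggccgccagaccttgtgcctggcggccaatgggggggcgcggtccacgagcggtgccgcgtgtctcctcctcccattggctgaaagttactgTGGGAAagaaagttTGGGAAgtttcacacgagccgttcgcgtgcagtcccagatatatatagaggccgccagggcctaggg
A match is a match of letters only, and no binding was measured.

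Library totals ran from 55469030 to 83894938 counts. The spread between replicates (biological coefficient of variation) was widest in pseudopodia (31.9%), then cell body (17.6%) and whole cell (5.09%). The test uses 1 spread per gene, so p-values may be too small where pseudopodia are compared. Within the pseudopodia group, deviations of genes followed GC content with r = -0.558 in replicate 2 and 0.567 in replicate 3, against -0.13 to 0.0689 in the other libraries. Not taken within groups, r with GC content also differed between the groups. It was 0.259, -0.00436 and 0.52 in pseudopodia, -0.00907 to 0.0576 in cell body and -0.341 to -0.328 in whole cell. Values below are normalised read counts (CPM, counts scaled to a common library total with TMM factors), given in replicate order. Log2 fold changes and adjusted p-values are from edgeR's quasi-likelihood test, with Benjamini-Hochberg adjustment over all 19426 genes and a call under 0.05.

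The HEY genes were far higher in both fractions than in whole cells, and HES1, the other target among the members, was far lower. HEYL (ENSG00000163909, chr1:39624153-39639945) codes for a repressor of the HEY family. Its CPM was 44.2, 43.7 and 61.6 in pseudopodia and 43.9, 54.9 and 45.9 in cell body. In whole cells it was 0.653, 0.335 and 0.420, from 109 counts in all 3 libraries. The pseudopodia and cell body libraries overlapped, and every whole-cell library lay far below both. As a description, the fitted log2 difference was 6.70 for pseudopodia and 6.65 for cell body against whole cell (103.9-fold and 100.5-fold). In bulk libraries such as these, fewer cells with a transcript and fewer copies per cell cannot be told apart. Between the fractions, a contrast the choice did not use, the log2 fold change was 0.05 (95% interval -0.40 to 0.50, adjusted p = 0.876), so no difference was detected. Its sign changed with the processing, and was -0.24 on log2(TPM + 1).

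HEY1 (ENSG00000164683, chr8:79764010-79767863), a related repressor, gave 44.7, 35.7 and 41.2 CPM in pseudopodia. Cell body read 63.9, 52.6 and 50.9 CPM, and whole cell 4.16, 3.47 and 4.12. The 3 groups did not overlap, with cell body highest. HEY1 was higher than in whole cells by 3.37 on the log2 scale in pseudopodia (SE 0.159, adjusted p = 7.04e-08) and by 3.83 in cell body (SE 0.163, adjusted p = 1.21e-07). On log2(TPM + 1), a scale that understates changes of low genes, the first value was 2.59. Between the fractions it was lower in pseudopodia, at -0.46 (SE 0.144, adjusted p = 0.0255). That call was lost without pseudopodia replicate 2 (adjusted p = 0.058), cell body replicate 1 (0.124) or whole cell replicate 1 (0.0553), and with offsets for GC content and length (0.0839).

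HEY2 (ENSG00000135547, chr6:125747664-125761269), the third family member, was rare in every library. Pseudopodia had 130, 105 and 74 counts (1.88, 1.43 and 1.43 CPM) and cell body had 52, 56 and 54 (0.891, 0.929 and 0.769 CPM). Whole cell had 4, 2 and 0 counts, a mean of 0.0242 CPM. All pseudopodia libraries were above all cell body libraries, and whole cells were near 0. HEY2 passed the filter only through the fractions, so it had to be higher there than in whole cells, and its fitted log2 values of 5.79 and 4.92 are a description, and were 6.55 and 5.66 without whole cell replicate 1, 1.52 and 1.16 on log2(TPM + 1), and 3.90 and 3.36 on log2(TPM + 0.1). Against cell body it was higher in pseudopodia by 0.87 (SE 0.289, adjusted p = 0.0333). The call was lost without pseudopodia replicate 1 (adjusted p = 0.121), or without cell body replicate 1 (0.0601), 2 (0.0682) or 3 (0.104), and on log2(TPM + 0.1) (0.111). An antisense gene overlaps its exons, and since the strand setting of the counting is not given, its reads may come from either.

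HES1 (ENSG00000114315, chr3:194136145-194138732), a repressor that Notch and several other signals induce, ran the other way. Its CPM was 19.3, 16.9 and 11.6 in pseudopodia, 29.8, 27.8 and 28.5 in cell body, and 195.8, 206.9 and 195.2 in whole cell. No group overlapped another, and the order was whole cell, cell body, pseudopodia. Against whole cells its log2 fold change was -3.64 in pseudopodia (SE 0.183, adjusted p = 9.76e-08) and -2.80 in cell body (SE 0.176, adjusted p = 1.44e-06). Pseudopodia were also below cell body, at -0.85 (SE 0.167, adjusted p = 0.00209). All 3 calls and directions held in each of the 21 alternatives run.

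**Figure D1:**
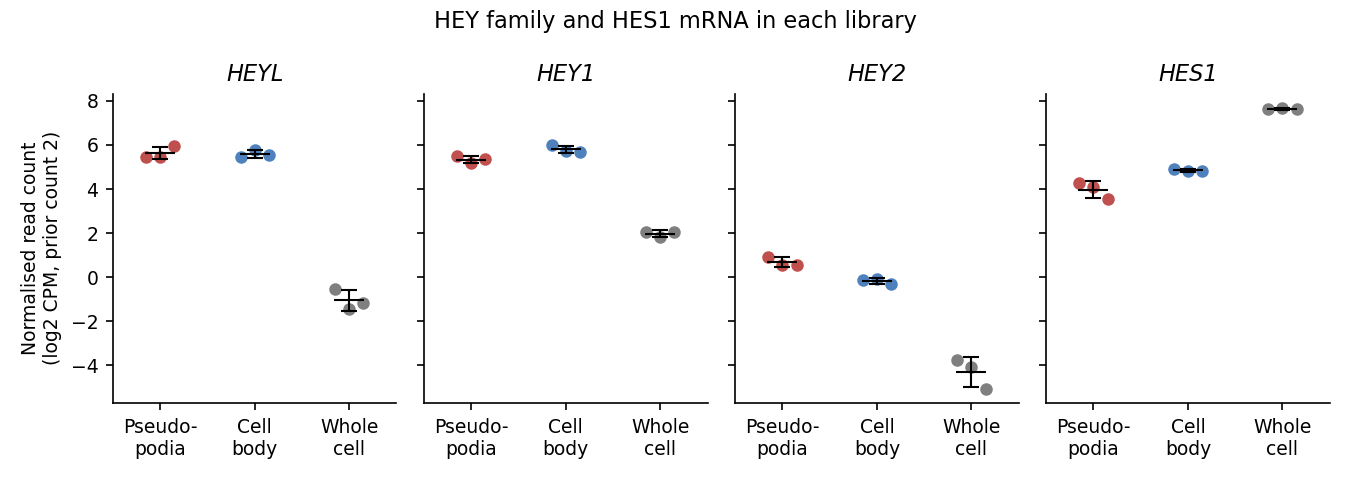
Log2 CPM (prior count 2, vertical axis) of the HEY genes and HES1 in each library (points, replicates left to right) of the 3 groups, with mean and SD as black bars. The HEY genes sit lowest in whole cells and HES1 sits highest there, at 195.2 to 206.9 CPM.

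The ratio of HES1 to HEY1, taken per length from TPM (the authors' length-scaled unit), states the same contrast within a library. It was 1.15, 1.26 and 0.753 in pseudopodia and 1.24, 1.41 and 1.49 in cell body. In whole cells it was 125, 159 and 126, so HES1 outweighed HEY1 there by far. Of the summed TPM of the 4 targets, HES1 held 27.8% ± 7.13 (SD, n = 3) in pseudopodia, 38.5% ± 1.73 in cell body and 99.1% ± 0.131 for whole cells. HEYL held 43.7% ± 7.86, 32.6% ± 3.8 and 0.119% ± 0.0438 in the same order. The summed TPM was 94.7 ± 3.88 in pseudopodia, 149.9 ± 3.92 in cell body and 456.0 ± 12.7 for whole cells.

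Among the receptors, NOTCH1 was higher in both fractions than in whole cells, NOTCH2 was lowest in pseudopodia, and NOTCH3 passed the test only for cell body against whole cell. NOTCH1 (ENSG00000148400, chr9:136494433-136545786) gave 223.6, 196.3 and 266.6 CPM in pseudopodia. Cell body read 150.3, 240.5 and 197.1 CPM, and whole cell 27.2, 25.1 and 25.6. The fractions overlapped each other and lay well above whole cells. The log2 fold change was 3.14 for pseudopodia (SE 0.189, adjusted p = 3.41e-07) and 2.92 for cell body (SE 0.187, adjusted p = 1.7e-06) against whole cell, and the first was 2.55 on log2(TPM + 1). Pseudopodia against cell body gave 0.22 (interval -0.16 to 0.61, adjusted p = 0.339). With GC and length offsets this value turned to -0.29 and was called (adjusted p = 0.0299), so its direction changed with that choice.

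NOTCH2 (ENSG00000134250, chr1:119911553-120069626) read 179.6, 179.9 and 179.7 CPM in pseudopodia. It read 272.0, 528.7 and 504.9 CPM in cell body and 484.8, 432.7 and 470.4 in whole cell. Pseudopodia were below every other library, and cell body overlapped whole cell, with cell body replicate 1 apart from the other two. NOTCH2 was lower in pseudopodia, with log2 fold changes of -1.28 against cell body (SE 0.21, adjusted p = 0.000656) and -1.36 against whole cell (SE 0.211, adjusted p = 0.000226). Without cell body replicate 1 it was still called against cell body, and every other alternative kept both calls. Cell body against whole cell gave -0.09 (interval -0.54 to 0.37, adjusted p = 0.763). NOTCH2 has near-identical partial copies, the NOTCH2NL genes, and reads shared with them may have been assigned to either.

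NOTCH3 (ENSG00000074181, chr19:15159038-15200981) read 154.6, 159.5 and 229.2 CPM in pseudopodia. Its cell body values were 153.6, 267.9 and 227.7 CPM, and its whole-cell values 143.2, 133.9 and 142.2. The fractions overlapped, and both lay above whole cells in every library. It was higher in cell body than in whole cells by 0.63 (SE 0.207, adjusted p = 0.0329), but this call was lost in 9 of 21 alternatives, among them leaving out cell body replicate 2 (adjusted p = 0.123) or 3 (0.0757) or any whole-cell replicate (0.0738 to 0.0845). Pseudopodia against whole cell gave 0.37 (adjusted p = 0.139), and -0.11 on log2(TPM + 1). Pseudopodia against cell body gave -0.26 (adjusted p = 0.355), and -0.76 with GC and length offsets (adjusted p = 0.000396).

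JAG1 (ENSG00000101384, chr20:10637684-10673999) codes for the Jagged ligand that activates these receptors in contacting cells. It read 291.1, 322.2 and 254.9 CPM in pseudopodia and 244.8, 360.6 and 366.8 in cell body. In whole cells it read 75.5, 72.4 and 78.0. Every fraction library was above every whole-cell library, and the fractions overlapped. The log2 fold change was 1.94 for pseudopodia (SE 0.168, adjusted p = 3.49e-06) and 2.11 for cell body (SE 0.169, adjusted p = 8.13e-06) against whole cell, and both calls held in all 21 alternatives. Between the fractions it was -0.16 (interval -0.52 to 0.19, adjusted p = 0.458). An antisense gene overlaps JAG1 exons, so the same limit on strand applies as for HEY2.

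Against whole cells the nuclear partners differed less than NOTCH1 and JAG1 did, though both were called in pseudopodia. RBPJ (ENSG00000168214, chr4:26163455-26435131), the DNA-binding protein of the complex, read 52.2, 62.2 and 36.6 CPM in pseudopodia. It read 61.2, 71.0 and 57.2 CPM in cell body and 86.3, 87.5 and 87.8 in whole cell. Whole cells were above all fraction libraries. RBPJ was lower in pseudopodia than in whole cells at -0.79 on the log2 scale (SE 0.177, adjusted p = 0.00255), and -0.47 in cell body missed the call (adjusted p = 0.0568) but passed it in 9 alternatives, such as log2(TPM + 1) (-0.62, adjusted p = 0.0233). With GC and length offsets the directions turned, to 0.31 (adjusted p = 0.0168) and 0.26 (adjusted p = 0.0438). Pseudopodia against cell body gave -0.33 (adjusted p = 0.17), and -0.59 on log2(TPM + 1) (adjusted p = 0.0289). Without pseudopodia replicate 2 it gave -0.51 (adjusted p = 0.0283).

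MAML1 (ENSG00000161021, chr5:179732850-179777286), the coactivator that completes the complex, read 84.0, 78.9 and 101.1 CPM in pseudopodia. It read 56.4, 85.3 and 84.9 CPM in cell body and 54.2, 55.1 and 54.5 in whole cell. The whole-cell values lay just under the lowest cell body library. Against whole cells MAML1 was higher by 0.69 in pseudopodia (SE 0.168, adjusted p = 0.00431), a call lost on log2(TPM + 1), where the value was 0.21 (adjusted p = 0.246). In cell body it was higher by 0.47 (SE 0.168, adjusted p = 0.046), a call lost in 11 of 21 alternatives, with adjusted p up to 0.208. These included leaving out pseudopodia replicate 1 (adjusted p = 0.0593), cell body replicate 2 (0.147) or 3 (0.133), or any whole-cell replicate (0.094 to 0.114). Between the fractions it gave 0.22 (adjusted p = 0.328).

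**Figure D2:**
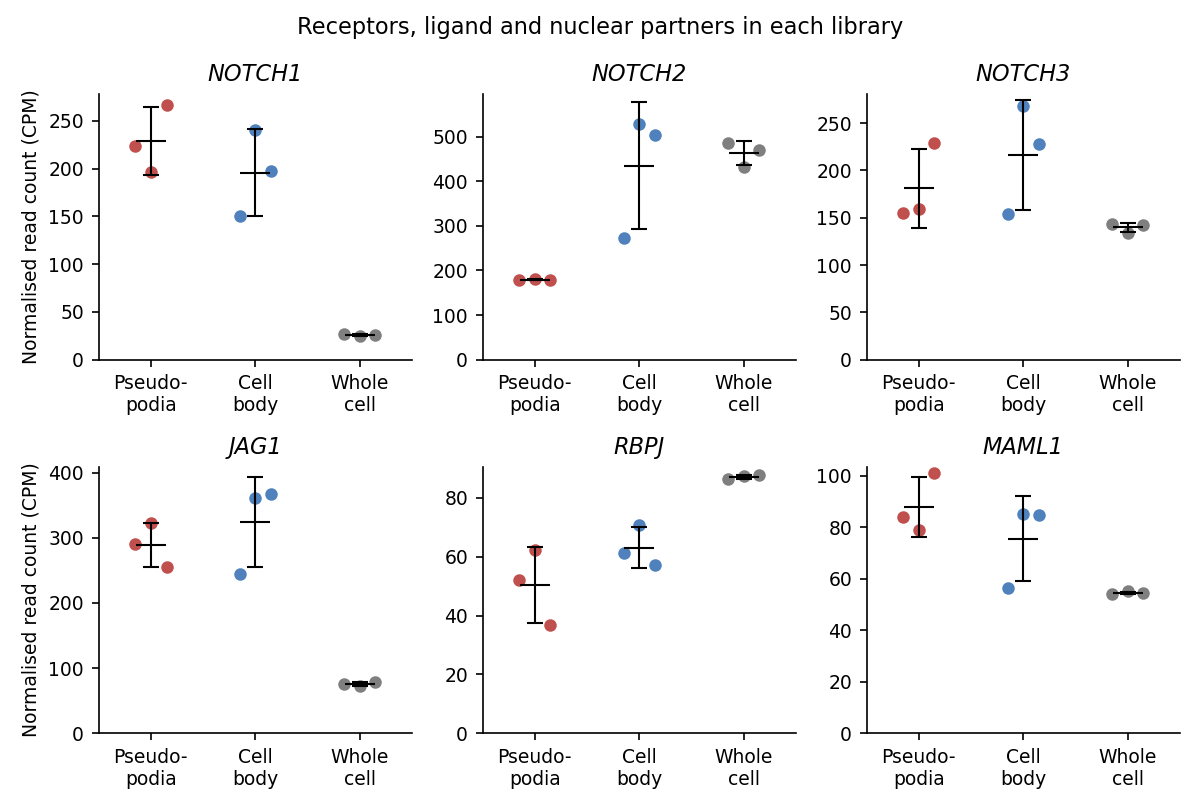
CPM (vertical axis, from 0) of the receptors, JAG1, RBPJ and MAML1 in each library (points, replicates left to right) of the 3 groups, with mean and SD as black bars. NOTCH1 and JAG1 are lowest in whole cells, NOTCH2 is lowest in pseudopodia, and RBPJ is highest in whole cells.

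Counted together, 4 of the 10 genes passed the test between pseudopodia and cell body, 1 higher (HEY2) and 3 lower (HEY1, HES1, NOTCH2). Over all genes the share was 38.5%, with 18.6% higher and 19.9% lower, so the members' share is near that of all genes. Without cell body replicate 1 the count fell to 2, and over all genes the calls fell to 3309 higher and 3408 lower, from 3605 and 3870. The median log2 fold change was -0.21 in the members and -0.05 over all genes. Leaving out HEYL and HEY2, 7 of 8 members passed the test for pseudopodia against whole cell, 4 higher (HEY1, NOTCH1, JAG1, MAML1) and 3 lower (HES1, NOTCH2, RBPJ). Over all genes it was 61%, with 27.9% higher and 33.1% lower, and the median log2 fold change was 0.53 in these 8 and -0.12 over all genes. For cell body against whole cell, 6 of 8 passed, 5 higher (HEY1, NOTCH1, NOTCH3, JAG1, MAML1) and 1 lower (HES1), against 38.6% over all genes (18.1% higher, 20.5% lower). Here the median was 0.55 in these 8 and -0.06 over all genes. Both comparisons with whole cells share the whole-cell libraries. For 7 of these 8 members, NOTCH2 being the exception, the 3 whole-cell libraries lay all above or all below the 6 fraction libraries, as they did for 44.5% of all genes. The libraries of the groups compared did not overlap for 4 of 10 members between the fractions (47.1% of all genes), for 8 of 8 between pseudopodia and whole cell (70%) and for 7 of 8 between cell body and whole cell (64.9%).

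**Figure D3:**
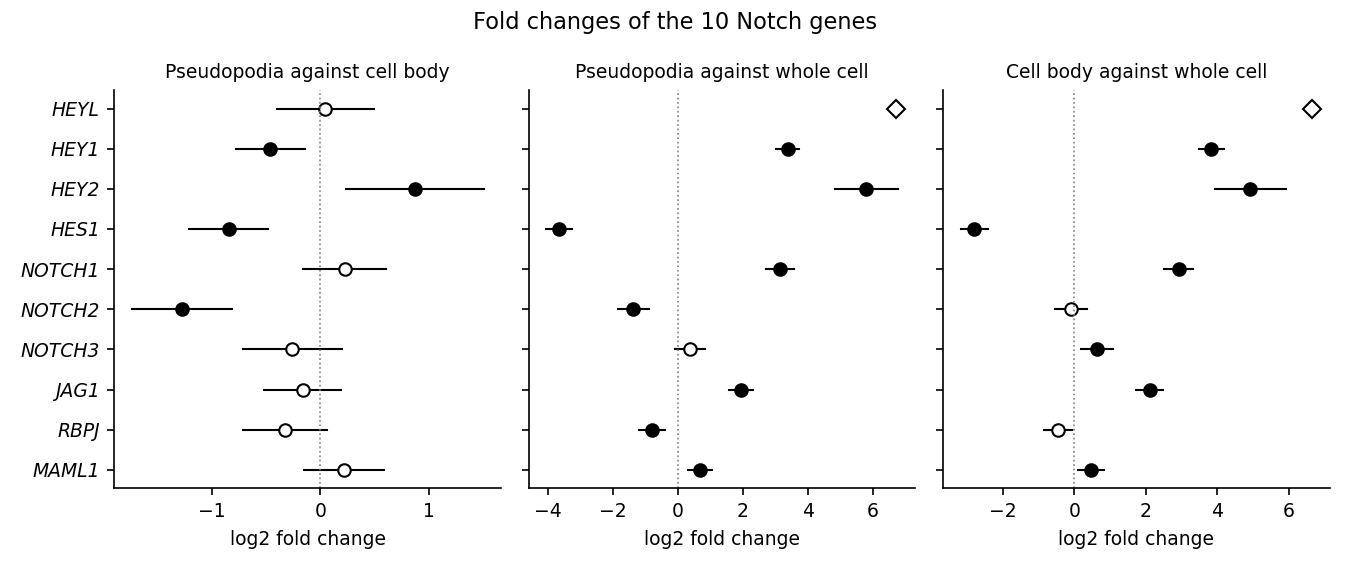
Log2 fold change (horizontal axis) of each of the 10 genes in the 3 comparisons, with 95% intervals as lines. Filled circles passed the test and open circles did not. Open diamonds (HEYL against whole cell, 6.70 and 6.65) are descriptions with no test. HEY2 against whole cell is drawn as filled circles with intervals, but it had to be higher there, so those points are descriptions too.

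The makeup of the receptor mRNAs, as shares of the summed TPM of NOTCH1 to NOTCH4 within a library, does not depend on how libraries are scaled. NOTCH1 held 39.6%, 36.0% and 37.6% in pseudopodia, 26.8%, 24.2% and 22.4% in cell body, and 4.68%, 4.75% and 4.51% in whole cell. NOTCH2 held 23.8%, 24.7% and 19.0%, then 36.3%, 39.8% and 43.0%, then 62.4%, 61.3% and 62.0%. Neither receptor's groups overlapped: NOTCH1's share was highest in pseudopodia and NOTCH2's was highest in whole cells. NOTCH3's share differed less, at 39.5% ± 3.37 (SD, n = 3) in pseudopodia, 35.6% ± 1.04 in cell body and 33.3% ± 0.498 for whole cells. NOTCH4 held 0.248%, 0.181% and 0.158% on average. The two-sided exact permutation test gave p = 0.1, the smallest that 3 against 3 allows, for 8 of the 9 differences tested, and p = 0.2 for NOTCH3 between the fractions. After adjustment over the 9 the values were 0.113 and 0.2, so none passed, and the design could not have let one pass. The NOTCH1 share differed by 13.3 percentage points between pseudopodia and cell body and by 33.1 between pseudopodia and whole cell.

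**Figure D4:**
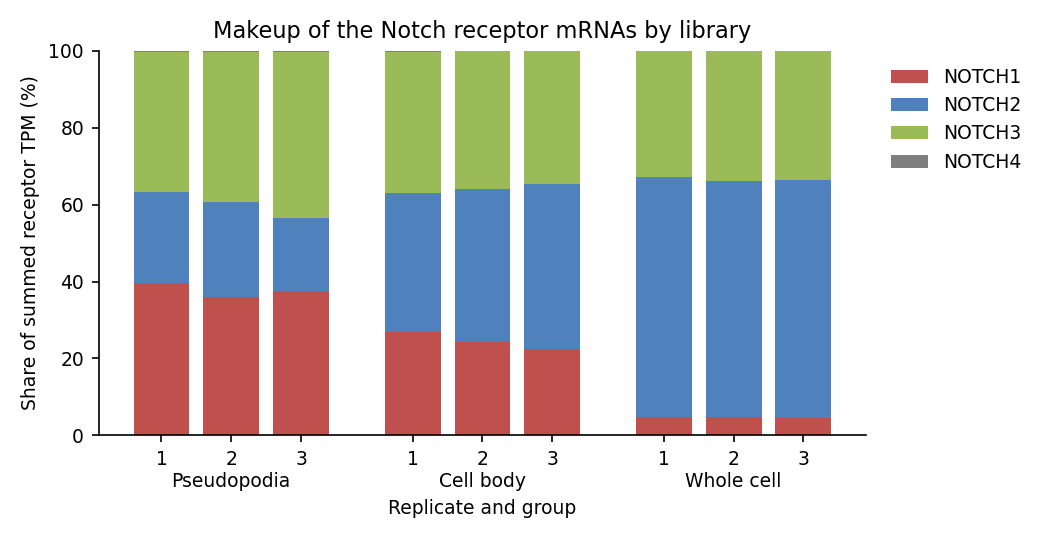
Share of the summed receptor TPM (vertical axis, %) held by each Notch receptor in the 9 libraries, as stacked bars by group and replicate. NOTCH1 takes 36.0% to 39.6% in pseudopodia and 4.51% to 4.75% in whole cells, NOTCH2 takes 61.3% to 62.4% in whole cells, and NOTCH4 is too low to see.

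Levels of different genes can be set side by side only per length, so their order is given in TPM. In pseudopodia JAG1 came first, at 106.0 ± 16.7 TPM (SD, n = 3), above every other member in all libraries. NOTCH3 (65.0 ± 12.4) and NOTCH1 (61.7 ± 6.92) overlapped, as did MAML1 (49.9 ± 4.46) with HEYL (41.3 ± 6.74), and HEYL with NOTCH2 (36.5 ± 1.55). HES1 (26.4 ± 7.17) and HEY1 (25.03 ± 2.46) overlapped too. RBPJ (11.2 ± 3.30) and HEY2 (1.99 ± 0.344) stood apart at the bottom. In cell body JAG1 again had the highest mean, at 144.2 ± 31.0 TPM, but from JAG1 through NOTCH2 (107.5 ± 35.1), NOTCH3, NOTCH1, HES1, MAML1 and HEYL to HEY1 (42.1 ± 5.20) each overlapped the next. In whole cells no neighbours overlapped. HES1 led with 452.1 ± 12.7 TPM, followed by NOTCH2 (129.2 ± 10.1), NOTCH3 (69.4 ± 3.8), MAML1 (42.7 ± 0.744) and JAG1 (37.8 ± 1.78). RBPJ (26.6 ± 0.407), NOTCH1 (9.69 ± 0.649), HEY1 (3.34 ± 0.381), HEYL (0.541 ± 0.203) and HEY2 (0.0425 ± 0.0394) came after.

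A list of 61 other genes of the pathway was described beside the members, of which 56 were tested (DLL3, DLL4, DLK1, HES2 and DTX1 were too low). Of these 56, 28 passed for pseudopodia against cell body (18 higher, 10 lower), 39 for pseudopodia against whole cell (26 and 13), and 21 for cell body against whole cell (13 and 8). These are 50%, 69.6% and 37.5%, against 38.5%, 61% and 38.6% over all genes, with medians of 0.27, 0.46 and 0.07. The directions depend on the scale: on log2(TPM + 1), which lowered the median of all genes to -0.17, -0.34 and -0.15, the splits were 13 higher and 13 lower, 18 and 20, and 10 and 12. The last count, 21, fell to 12 without whole cell replicate 1, where the calls over all genes fell to 2338 higher and 2711 lower, from 3521 and 3980.

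Of the 5 other target genes tested, 4 were higher in pseudopodia than in whole cells (27.9% of all genes) and 3 were higher in cell body (18.1% of all genes), and none was called lower. HES7, which passed in no comparison, gave 0.45 in pseudopodia (adjusted p = 0.614) and -0.47 in cell body (adjusted p = 0.674). NRARP, a Notch target that feeds back on the receptor's intracellular domain, read 3.44, 3.18 and 4.26 CPM in pseudopodia, 3.12, 3.40 and 2.37 in cell body, and 0.229, 0.292 and 0.387 in whole cell. Its log2 fold change was 3.595 for pseudopodia (adjusted p = 1.05e-06) and 3.30 for cell body (adjusted p = 7.04e-06). HES4, a relative of HES1, read 9.91, 10.9 and 13.7 CPM in pseudopodia, 14.2, 9.17 and 9.42 in cell body, and 1.24, 1.36 and 1.18 in whole cell, with log2 fold changes of 3.19 and 3.12 (adjusted p = 8.58e-07 and 3.65e-06). HES5, a target known from neural progenitors, gave 2.60 and 2.43 (adjusted p = 2.73e-05 and 0.000159), from 2.24 to 3.68 CPM in the fractions and 0.316 to 0.671 in whole cells. Groups of fraction and whole-cell libraries did not overlap for these 3 genes. On log2(TPM + 1) the pseudopodia values were 1.88 for NRARP, 2.51 for HES4 and 1.67 for HES5, still called, and those for cell body were 1.87 for NRARP and 1.77 for HES5. HES4 in pseudopodia gave 2.52 with GC and length offsets. HES6, named after its value was seen, was the 1 gene of the 5 called between the fractions (0.78 higher in pseudopodia, adjusted p = 0.0337), a call lost on both log2 TPM scales, with the replicate block, with only the 6 libraries compared, and without pseudopodia replicate 3, cell body replicate 2 or 3, or whole cell replicate 2. The 5 CPM filter drops the gene.

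The genes that mature and cut the receptor numbered 14, of which 8 were lower in pseudopodia than in cell body and 2 higher, against 19.9% and 18.6% of all genes. ADAM10 read 46.6, 62.0 and 22.6 CPM in pseudopodia and 166.9, 186.2 and 192.0 in cell body, a log2 fold change of -2.05 (adjusted p = 0.000533). NCSTN, the large subunit of γ-secretase, read 56.5, 52.0 and 68.2 CPM against 200.4, 246.4 and 224.3 (-1.93, adjusted p = 1.78e-06). POGLUT1, which adds glucose to the receptor's repeats, read 3.74, 4.17 and 3.38 CPM against 13.2, 15.8 and 15.7 (-1.98, adjusted p = 2.59e-06). No library of either group overlapped the other for these 3 genes. Against whole cells ADAM10, POGLUT1 and NCSTN were lower as well, at -2.37, -1.94 and -1.86 (adjusted p = 0.000125, 1.6e-06 and 1.26e-06). With GC and length offsets ADAM10 gave -1.50 and POGLUT1 gave -1.15 there, both called. MFNG, a sugar transferase that modifies the receptor, was higher in both fractions than in whole cells (2.71 and 2.55, adjusted p = 1.42e-05 and 8.26e-05), with 11 to 19 counts in each whole-cell library and values of 0.89 and 0.97 on log2(TPM + 1). PSEN2 was lower in cell body than in whole cells by a log2 fold change of -2.16 (adjusted p = 0.0011), with 9 to 18 counts in each cell body library and a value of -0.26 on log2(TPM + 1).

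Of 13 corepressors, 8 were higher in pseudopodia than in cell body and none was lower, against 18.6% and 19.9% of all genes. Of 12 endocytosis and turnover genes 5 were higher and none was lower, a share called (41.7%) near the 38.5% of all genes. Of 7 coactivators 2 were higher, 1 was lower and 4 were not called, a share called (42.9%) also near that of all genes. On log2(TPM + 1) the corepressors split into 7 higher and 2 lower, and leaving out pseudopodia replicate 1, 2 or 3 gave 8 higher with 1, 2 and 1 lower. NCOR1, a scaffold for histone deacetylases, gave 1.15 for pseudopodia against cell body (adjusted p = 0.00125), and L3MBTL3, a corepressor that binds RBPJ, gave 1.40 (adjusted p = 0.000507). CREBBP, a histone acetyltransferase, read 375.3, 364.6 and 305.6 CPM in pseudopodia against 99.6, 153.9 and 130.3 in cell body (1.45, adjusted p = 4.25e-05). NEURL1B, a ubiquitin ligase for Notch ligands, gave 2.03 (adjusted p = 8.7e-06), with 7.07 to 8.99 CPM against 1.59 to 2.15, and 1.20 on log2(TPM + 1). The libraries of pseudopodia and cell body did not overlap for these 4 genes.

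Of the 56 genes, only MAML2 and NUMBL were called in all 3 comparisons with a log2 fold change of at least 1 in each. How many of all genes met this rule was not counted. The calls held in all 21 alternatives, but not the size of 1. Values fell to 0.73 for NUMBL and -0.82 for MAML2 between the fractions, and to 0.98 for NUMBL in cell body against whole cell. MAML2, a relative of MAML1, read 8.997, 10.9 and 6.29 CPM in pseudopodia, 18.6, 23.8 and 12.3 in cell body, and 55.5, 48.0 and 54.2 in whole cell. The log2 fold changes were -1.06 between the fractions (adjusted p = 0.00699), -2.59 for pseudopodia (adjusted p = 1.46e-05) and -1.53 for cell body (adjusted p = 0.00115) against whole cell. NUMBL, an adaptor of the Numb family that opposes Notch, ran from 340.6, 324.8 and 437.0 CPM in pseudopodia through 162.4, 205.4 and 172.8 in cell body to 77.6, 79.5 and 81.9 in whole cell. Its values were 1.03 between the fractions (adjusted p = 0.000211), 2.20 for pseudopodia (adjusted p = 7.01e-07) and 1.18 for cell body (adjusted p = 0.000154) against whole cell. MAML2 thus had the order of HES1 and NUMBL the reverse.

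CIR1, a corepressor that binds RBPJ, was lower than in whole cells in both fractions, at -2.49 and -2.74 (adjusted p = 0.00264 and 0.00371). Its pseudopodia libraries read 1.53, 7.23 and 1.78 CPM, so replicate 2 stood apart, and without it the first value was -3.58 (adjusted p = 1.27e-07). With GC and length offsets that value was -1.50 (adjusted p = 0.00379). It read 2.95, 3.02 and 2.91 CPM in cell body and 19.1, 21.0 and 19.4 in whole cell. DTX4, a ubiquitin ligase of the Deltex family, was higher in cell body than in whole cells by 1.18 (adjusted p = 0.0023). The ligand DLL1 was lower there by a log2 fold change of -0.9985 (adjusted p = 0.0257) and DLK2, a related membrane protein, by -0.74 (adjusted p = 0.0366). Both were under 2 CPM in every library. The DLL1 call was lost without cell body replicate 2 (adjusted p = 0.07) or 3 (0.0788) or whole cell replicate 1 (0.0778) or 2 (0.0922). The DLK2 call was lost without any 1 of the cell body or whole-cell replicates (0.0557 to 0.164).

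**Figure D5:**
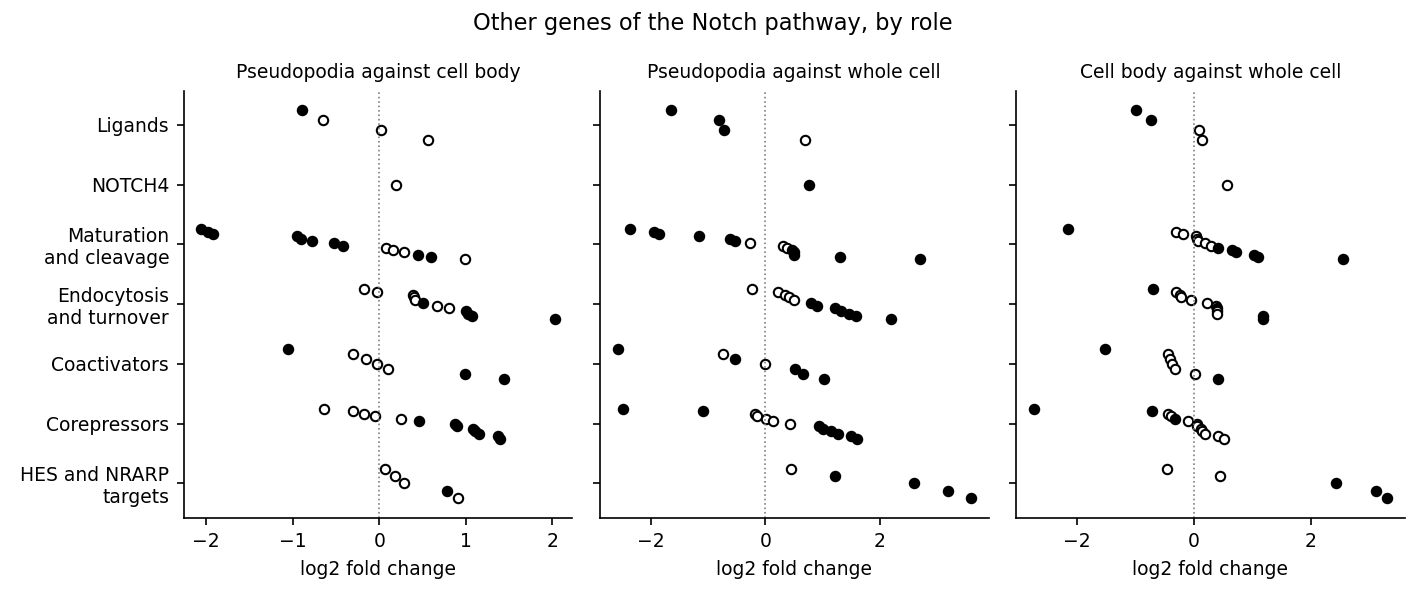
Log2 fold change (horizontal axis) of the 56 other tested pathway genes in the 3 comparisons, 1 point per gene, by role (vertical axis), filled where the test was passed. The target genes lie right of 0 against whole cells except HES7 in cell body (-0.47), and most maturation and cleavage genes lie left of 0 between the fractions.

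The genes whose pattern over the 9 libraries was closest to HEYL, by the root mean square difference of centred log2 CPM, were FOXS1 (0.458), RDH8 (0.511), CLDN14 (0.63), PGF (0.753) and XIRP1 (0.774). FOXS1, a forkhead transcription factor, averaged 16.1 CPM in pseudopodia, 17.8 in cell body and 0.0627 for whole cells. PGF, a growth factor of the VEGF family, averaged 46.0, 42.3 and 1.22 CPM. CLDN14, a tight junction protein, averaged 17.0, 26.5 and 0.354 CPM. These genes were found by their likeness, so their values are a description.

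Markers of mesenchymal cells were present in all groups, with 10 of 10 listed genes above 1 TPM in every library of each group, as the label of the line says. Their summed TPM was 12550 to 14730 in pseudopodia, 24140 to 26630 in cell body and 24820 to 25420 for whole cells. Notch targets are also used by endothelial cells and pericytes, so these lists were read beside the members. The 10 endothelial markers summed to 49.7 to 68.0 TPM in pseudopodia, 61.8 to 87.2 in cell body and 69.4 to 74.3 for whole cells, with 5, 4 and 4 of them above 1 TPM in every library. KDR and CLDN5 were at 0 in every cell body and whole-cell library and at most 0.0303 and 0.0140 TPM in pseudopodia. Others were present: TEK averaged 32.7, 59.7 and 54.7 TPM and CDH5 1.57, 8.33 and 11.3 TPM. ERG was higher in pseudopodia than in cell body by 4.35 (log2 scale, adjusted p = 8.05e-07) and than in whole cells (3.88, adjusted p = 7.79e-07). Against whole cell, VWF (3.47 and 2.07) and PECAM1 (1.53 and 1.26) were higher in pseudopodia and in cell body, and CDH5 was lower in pseudopodia (-2.39, adjusted p = 1.2e-06). The 10 pericyte and smooth muscle markers summed to 307.3 to 396.0, 523.2 to 541.2 and 384.3 to 423.3 TPM, with 7, 8 and 8 above 1 TPM. TAGLN, CSPG4 and ACTA2 were present in every library, and MYH11 stayed at or under 0.354 TPM. Of these 10, 4 were higher and 1 was lower in cell body than in whole cells, against 18.1% and 20.5% of all genes. In pseudopodia 2 were higher (DES and CNN1) and 3 lower than in whole cells, against 27.9% and 33.1%. DES passed the filter only through pseudopodia, so it had to be higher there, and its value of 2.09 is a description. CSPG4 was higher in cell body than in whole cells by 1.56 (adjusted p = 0.000267), and MYH11 was lower there (-0.90, adjusted p = 0.0146). RGS5, KCNJ8 and ABCC9 were lower in pseudopodia than in whole cells (-1.55, -1.12 and -1.31), and CNN1 was higher (0.9987, adjusted p = 0.000214). The 6 haematopoietic markers summed to 30.1 to 36.5, 55.0 to 60.4 and 39.3 to 40.9 TPM, mainly from CD34 and CD14, with PTPRC at most 0.122 TPM. CD14 was higher than in whole cells by 2.28 in cell body (adjusted p = 8.63e-06) and by 0.57 in pseudopodia (adjusted p = 0.0173). The 6 epithelial markers summed to 212.0 to 280.6, 250.5 to 295.3 and 148.9 to 158.5 TPM, mainly from KRT8 and KRT18, with EPCAM at most 0.123 TPM. KRT18 was higher than in whole cells by 1.39 in pseudopodia (adjusted p = 1.73e-05) and 1.33 in cell body (adjusted p = 8.42e-05), and KRT8 by 0.73 (adjusted p = 0.00094) and 0.40 (adjusted p = 0.0428). Nuclear noncoding RNAs on a list of 5 summed to 39.8 to 45.4 TPM in pseudopodia, 81.02 to 110.2 in cell body and 204.0 to 219.6 for whole cells. The sum had the order of HES1 and MAML2, but not every gene on the list did. Between the fractions 4 of the 5 were lower in pseudopodia (19.9% of all genes), and NEAT1 did not differ (0.05, adjusted p = 0.755). MALAT1, 1 of these 4, passed the filter only through cell body and whole cell, so it had to be lower in pseudopodia and is a description. The part of these differences in the results for the members was not tested.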

How the data were processed

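RNA from 9 libraries (3 pseudopodia, 3 cell body, 3 whole cell) was sequenced with a kit for low input, per the labels' protocols. The authors deposited raw counts by gene in 1 table, which the labels name as featureCounts output, and TPM values per library were deposited by the authors in separate tables. The submitters' processing notes name GRCh38 and DESeq2. The sources used here do not give the aligner, annotation, strand setting or versions.

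Of 62709 genes (1 blank line left out), 37196 had a count, and edgeR's filter by group (minimum count 10) left 19426. Groups were compared in 1 fit over all 9 libraries with edgeR 4.0.16 (R 4.3.3, quasi-likelihood, robust, TMM). Standard errors come from the test statistic. Shares of TPM were compared by exact permutation (SciPy 1.17.1). The test was run on simulated counts with the same spread in all groups, so that check does not cover the unequal spreads of these groups. Replicates differed beyond counting noise (lowest chi-square 4.68 per gene), so none was taken for a repeat deposit of another library. Positions are from GENCODE 29, and start-site sequences from RefSeq (GRCh38.p14).

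The members and lists were chosen with earlier results of these data known. Named were all members, the 5 pathway genes highest and the 5 lowest among those called in each comparison, those called in all 3 with a log2 fold change of at least 1, and the 5 genes nearest HEYL. Some pathway genes that this rule names are counted but not reported here. Alternatives were other factors (DESeq2 size factors, upper quartile, no mitochondrial and ribosomal protein genes), other filters (none, 5 CPM in 3 libraries), DESeq2 1.42.0, limma 3.58.1 (voom, and log2 TPM with pseudocounts 1 and 0.1), the 6 libraries compared, a replicate block, GC and length offsets (for 96.1% of genes) and leaving out each library.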

Additional observations from a re-analysis of the deposited data

How the results depend on the processing

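Of 627 values of single members under an alternative, 554 kept their direction and side of the threshold, 32 lost and 17 gained a call, 21 changed sign and 3 descriptive values moved. All 63 alternatives of the receptor shares kept their direction. These were only shares of raw counts and shares with a library left out, so they do not cover the GC and length offsets. The sign changes were mostly of values with no call. For HEYL between the fractions they were -0.0028 (5 CPM filter), -0.15 (voom), -0.24 and -0.25 (log2 TPM with 1 and 0.1), -0.014 (6 libraries), -0.035 (GC and length offsets) and -0.13 (without pseudopodia replicate 3), and leaving out 1 library gave -0.13 to 0.15. In the same comparison NOTCH1 gave -0.047 on both TPM scales and -0.29 with the offsets, RBPJ gave 0.045 with the offsets, and MAML1 gave -0.047 and -0.048 on the TPM scales. Against whole cell, NOTCH3 in pseudopodia gave -0.11 on both TPM scales and -0.16 with the offsets, NOTCH2 in cell body gave 0.043 (voom), 0.0905 (offsets) and 0.17 (without cell body replicate 1), and RBPJ gave 0.31 (pseudopodia) and 0.26 (cell body) with the offsets. The descriptive HEYL values moved to 4.78 and 5.02 on log2(TPM + 1), and to 6.05 for pseudopodia on log2(TPM + 0.1), where a pseudocount compresses low values, as it does for HEY2. The cause of the other changes was not tested.

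Members called between the fractions numbered 7 with voom against 4, and 2 to 4 when a library was left out. Over all genes voom called 5197 higher and 5994 lower there, against 3605 and 3870. Leaving out a library gave 6034 to 8581 called, against 7475, so the number called over all genes moved too. For cell body against whole cell the members called numbered 4 with the 5 CPM filter (which drops HEY2) against 7 of 9 with HEY2, and 5 to 8 when a library was left out. All of these but the 4 include HEY2, which had to be higher there. In the main fit 38.6% of all genes were called. Other pathway genes called there numbered 34 with voom and 32 with the 6 libraries against 21, and 12 to 31 when a library was left out. All genes called there numbered 4667 with the 5 CPM filter and 11999 with voom against 7501, and 5049 to 10399 when a library was left out. For pseudopodia against whole cell 7516 were called with the 5 CPM filter, which tests fewer genes, against 11842. The share of called genes that were higher was 48.2%, 45.7% and 46.9% in the 3 comparisons, in the order used above, 28.1%, 25% and 31% on log2(TPM + 1), 27.3%, 25% and 32.4% on log2(TPM + 0.1), and 53.9%, 57.7% and 60.8% with the offsets. Upper-quartile factors gave 37.4% for cell body against whole cell.

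Libraries with the same replicate number did not deviate together (r from -0.0807 to 0.0901). A low r cannot show that they were unpaired, as the GC trends of single pseudopodia libraries could hide what a pair shared. The replicate block was run as an alternative, and the offsets were not combined with the block. With the replicate block 3 members were called between the fractions, against 4. Over all genes the block called 3267 higher and 3653 lower there, against 3605 and 3870. Against whole cell the block left the numbers of members called unchanged. Those numbers include HEY2, which had to be higher there, so they are a description. The block ended the HES6 call between the fractions, and gave HEY2 between the fractions an adjusted p of 0.0524, MAML1 in cell body 0.0575 and RBPJ in cell body 0.0426. Counting depth limits HEY2 in whole cells (6 counts in all), and 3 libraries a group limit every exact test.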
